A study of Homo sapiens with 21 samples.

Results

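The genes described here are 10 inflammatory cytokines and chemokines, IL6, IL8 (the older symbol of CXCL8), IL1A, IL1B, IL11, LIF, CXCL1, CXCL2, CXCL3 and CCL2, in RNA-seq of hTERT-HPNE cells. They were picked by symbol from the 23368 genes listed, and 9 of the 10 varied among the libraries, against 19694 genes that varied in all. CCL2 was listed at 0 in every library. hTERT-HPNE is a non-transformed human pancreatic line, immortalized with telomerase, and all libraries came from this single line. The 7 groups of 3 biological replicates were untreated cells collected at the time of treatment and cells collected 4, 8 or 24 h after either 400 ng/ml NCS (neocarzinostatin, an agent that breaks both strands of DNA) or 300 µM H2O2 (hydrogen peroxide, an oxidant). Treated cells also received fresh medium at the time of treatment, so that in a comparison with untreated cells an agent cannot be told apart from the medium change and the time in culture, whereas H2O2 and NCS were compared at matched times. The 6 comparisons with untreated cells share the same 3 untreated libraries.

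Values are the deposited rLog values, which are log2 values of normalized read counts whose differences have been shrunk, most strongly for genes with few reads. No read counts were given, so the depth behind a value is unknown. Library medians lay between 7.14 and 7.19, and the mean distance of a library to the others of its group was 9.28 to 14.9 over all genes that varied, with the 3 libraries of H2O2 at 8 h highest. Markers of pancreatic duct were uneven in these cells. Over the 21 libraries KRT18 averaged 11.6, KRT8 7.93, KRT7 6.93, MUC1 6.09, SOX9 6.07 and CDH1 3.79. KRT19 averaged 0.60, CFTR -1.34 and EPCAM -1.76. The mesenchymal genes VIM and COL1A1 averaged 17.0 and 17.8, in a list that ran from S100A4 at 5.10 to FN1 at 20.0. Of 9 leukocyte markers, CD3E and AIF1 were listed at 0 in every library, a value from which no absence of expression is read. PTPRC, the pan-leukocyte antigen CD45, averaged 0.93, LYZ 0.09, CD79A 2.44, CD14 2.58, ITGAM 3.94 and CSF1R 5.10. CD68, which other cells also use, averaged 10.1. Of 5 endothelial markers, CDH5 averaged -2.04, KDR -0.11, PECAM1 2.11, VWF 3.16 and TEK 8.40. The summed level of the duct markers was 11.8 to 11.9 in untreated cells and 11.6 to 12.0 in treated cells, that of the mesenchymal markers 20.6 to 20.7 and 20.2 to 20.8, and that of the endothelial markers 8.68 to 8.81 and 8.16 to 8.66 (log2). Each sum was taken on the linear scale and mostly follows the highest gene of its list, KRT18, FN1 and TEK.

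Cytokines and chemokines are small secreted proteins that carry signals between cells during inflammation, tissue repair and senescence. LIF, IL11 and IL6 belong to the IL-6 family, whose members signal through the shared receptor chain gp130 (IL6ST), JAK kinases and the transcription factor STAT3. IL8, CXCL1, CXCL2 and CXCL3 are CXC chemokines that draw neutrophils through the receptors CXCR1 and CXCR2, CCL2 draws monocytes through CCR2, and IL1A and IL1B start inflammatory signaling through IL1R1. Many of these genes are transcribed transiently after stress under AP-1, NF-kB and C/EBP factors, and their mRNAs are short-lived because decay factors such as TTP (ZFP36) bind AU-rich elements.

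The bases just before the transcription start are shown for IL8 and IL11, which held the AP-1 motif, and for IL6, CXCL1, CXCL2 and CXCL3, which held the NF-kB consensus, to let the matches be seen. IL1A, which also held the AP-1 motif, and IL1B, which held neither, are not shown. RefSeq promoter sequences (build GRCh38.p14, not the hg19 build that the submitters' processing notes name) were matched for 8 of the 10 members, and not for LIF or CCL2. Each sequence below ends 1 base before the annotated start and runs 5' to 3' on the strand of the gene. Capitals mark a match to the AP-1 motif TGANTCA in IL8 and IL11 and to the NF-kB consensus GGGRNNYYCC in IL6, CXCL1, CXCL2 and CXCL3, searched on both strands. R stands for A or G, Y for C or T and N for any base. Only exact matches were sought, so a stretch that departs from these letters, in IL8 or elsewhere, is not marked.
IL8 (chr4:73740319-73740568, + strand): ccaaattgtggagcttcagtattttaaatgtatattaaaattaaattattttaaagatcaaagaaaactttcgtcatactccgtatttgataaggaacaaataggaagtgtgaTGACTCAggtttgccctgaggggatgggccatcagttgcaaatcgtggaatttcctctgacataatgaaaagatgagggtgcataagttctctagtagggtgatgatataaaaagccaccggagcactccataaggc
IL11 (chr19:55370464-55370713, - strand): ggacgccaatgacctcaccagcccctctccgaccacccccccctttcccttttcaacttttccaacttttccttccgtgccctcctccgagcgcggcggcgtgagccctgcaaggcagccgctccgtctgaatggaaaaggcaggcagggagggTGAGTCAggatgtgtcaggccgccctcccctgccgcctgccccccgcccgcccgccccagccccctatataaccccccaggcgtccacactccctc
IL6 (chr7:22726950-22727199, + strand): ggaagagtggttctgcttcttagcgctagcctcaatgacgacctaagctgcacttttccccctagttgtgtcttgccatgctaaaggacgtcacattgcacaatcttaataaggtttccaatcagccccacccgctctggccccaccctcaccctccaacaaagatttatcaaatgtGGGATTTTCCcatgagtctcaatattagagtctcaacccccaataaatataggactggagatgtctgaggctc
CXCL1 (chr4:73869273-73869392, + strand): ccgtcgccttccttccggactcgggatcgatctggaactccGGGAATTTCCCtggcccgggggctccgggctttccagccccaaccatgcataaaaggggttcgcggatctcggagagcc
CXCL2 (chr4:74099196-74099315, - strand): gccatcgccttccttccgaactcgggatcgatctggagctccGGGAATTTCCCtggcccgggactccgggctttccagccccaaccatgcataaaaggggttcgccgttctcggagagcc
CXCL3 (chr4:74038690-74038809, - strand): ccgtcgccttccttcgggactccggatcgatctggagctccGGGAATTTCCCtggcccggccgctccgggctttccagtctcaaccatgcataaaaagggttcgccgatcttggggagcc

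Counting back from the start, the AP-1 match lay at -137 to -131 in IL8 and at -96 to -90 in IL11. IL1A has 2 annotated starts, whose windows of 250 bases overlap. It also held AP-1 matches, 1 in the first window and 2 in the other. The match at -12 to -6 of the first window is the same site as that at -105 to -99 of the other. The NF-kB match lay at -73 to -64 in IL6. In CXCL1, CXCL2 and CXCL3 the capitals are a single stretch that reads as a match on either strand, and the last 120 bases were 94.2% identical between CXCL1 and CXCL2, 90.8% between CXCL1 and CXCL3 and 89.2% between CXCL2 and CXCL3. No match to the CRE motif TGACGTCA was found in any of the 8. Among all 35116 promoter windows of the same length, 6.57% held the AP-1 motif, 9.96% the NF-kB consensus and 1.65% the CRE motif. These matches are descriptions of the letters and not binding sites.

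IL8, CXCL1, CXCL2 and CXCL3 lie in the same stretch of chromosome 4, which holds 9 protein-coding genes from CXCL8 to CXCL2 in GENCODE v29, and IL1A and IL1B are neighbors on chromosome 2 with 0 protein-coding genes between them. CXCL1, CXCL2 and CXCL3 are near-identical in part. Of all windows of 50 bases in their exons, 4.81% in CXCL1, 12.5% in CXCL2 and 6.01% in CXCL3 also occurred in another gene of this set, against 0 of 2262 windows in IL8. How reads that fit several places were counted is not given in the sources used here. The windows are shorter than the paired-end reads that the paper describes. These shares therefore do not measure the uncertainty of the values of these 3 chemokines, which stays unknown.

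In untreated cells the level per length, as the rLog value minus log2 of the exon length in kilobases, ran from LIF at 6.93 through IL11 at 5.29, IL8 at 3.62, IL6 at 3.00, CXCL3 at 2.57, CXCL2 at 2.32, IL1B at 2.17 and CXCL1 at 1.30 to IL1A at 0.03. The libraries of CXCL2 (2.20 to 2.39) and IL1B (2.15 to 2.20) overlapped on this scale, and no other neighbors in the order did. Shrinkage by the rLog transformation is strongest where reads are few, so differences of the lower members are held closest to 0.

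LIF and IL11 rose after both H2O2 and NCS, and IL8 did so at 4 and 8 h, with the highest level of each at 4 h (plot of each library's value by time). At 4 h after H2O2, 3 of the 9 varying members, LIF, IL8 and IL11, were higher by more than 1 on the log2 scale, as were 0.655% of all genes. On the deposited scale, the other CXC chemokines and IL1A did not pass the test at any time after either agent, apart from CXCL3 at 8 h after H2O2.

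**Figure D1:**
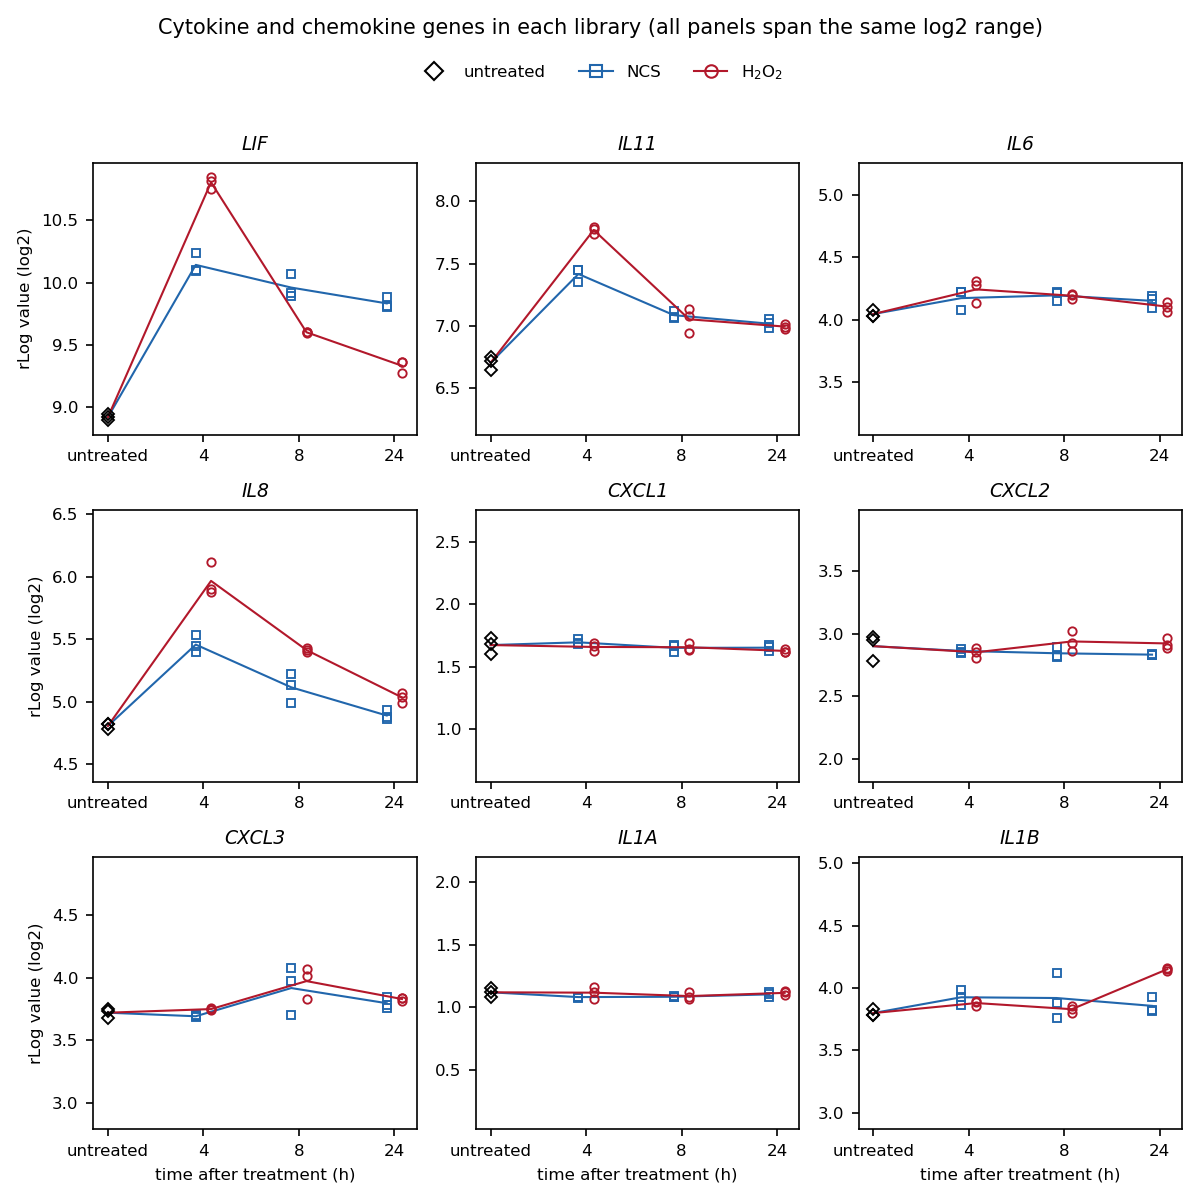
Each point is the rLog value (log2) of a library, in untreated cells and 4, 8 and 24 h after NCS (squares) or H2O2 (circles), and lines join group means; every panel spans the same log2 range. LIF, IL11 and IL8 peak at 4 h, higher with H2O2, LIF with H2O2 drops below LIF with NCS from 8 h on, and IL1B is raised at 24 h after H2O2, with libraries from 4.13 to 4.16.

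Counts of members past an adjusted p of 0.05 (limma, Benjamini-Hochberg over all 19694 genes) are to be read against large shares of all genes. After H2O2, 4 members were higher at 4 h (26.2% of all genes were), 5 at 8 h (18.8%) and 4 at 24 h (20.2%). After NCS, 3 members were higher at 4 h (7.47% of all genes), 4 at 8 h (10.5%) and 2 at 24 h (19.6%), the last a share close to that of all genes. No member was lower than in untreated cells on the deposited scale, while 19.7%, 18.6% and 19.9% of all genes were lower at 4, 8 and 24 h after H2O2 and 9.72%, 13.3% and 18.4% after NCS. With quantile normalization, which gives all libraries the same distribution, 3 low members were called lower at 4 h after H2O2, IL1A at -0.08 (limma adjusted p = 0.00612), CXCL1 at -0.12 (adjusted p = 0.0014) and CXCL2 at -0.19 (adjusted p = 0.00311). Past a log2 difference of 1, 3 members were higher at 4 h after H2O2, 1 at 4 h and 1 at 8 h after NCS, and none in the other groups. The corresponding shares of all genes were 0.0914% at 4 h and 0.0660% at 8 h after NCS, 0.320% and 0.325% at 8 and 24 h after H2O2 and 0.127% at 24 h after NCS. The median difference of the 9 members from untreated cells was 0.08, 0.15 and 0.11 at 4, 8 and 24 h after H2O2 and 0.13, 0.15 and 0.08 after NCS. That of all genes was at most 0.0038 in size, but there rises and falls cancel. Taken without sign, the members' medians were the same. Those of all genes were 0.08, 0.06 and 0.07 after H2O2 and 0.04, 0.04 and 0.07 after NCS. At 4 h after H2O2 and 24 h after NCS the members' median was thus close to that of all genes.

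LIF, a cytokine of the IL-6 family that acts through LIFR and gp130, was the member with the highest level and the largest difference from untreated cells. Its values were 8.94, 8.90 and 8.92 in the 3 untreated libraries and 10.81, 10.75 and 10.85 at 4 h after H2O2. At 4 h after NCS they were 10.10, 10.24 and 10.09. All treated libraries lay above all untreated libraries at this time, and all H2O2 libraries lay above all NCS libraries. LIF was higher than in untreated cells by 1.88 ± 0.04 (SE, log2, n = 3) after H2O2 (limma adjusted p = 1.31e-15) and by 1.22 ± 0.04 after NCS (adjusted p = 2.57e-12), or 3.69-fold and 2.33-fold on the rLog scale, which understates changes.

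The later course of LIF differed between the agents. At 8 h the H2O2 libraries read 9.60, 9.60 and 9.61 and the NCS libraries 10.07, 9.91 and 9.90. At 24 h the values were 9.36, 9.37 and 9.27 after H2O2 and 9.81, 9.81 and 9.88 after NCS. From 8 h on, every NCS library was above every H2O2 library, the opposite order from that at 4 h. After H2O2, LIF fell by 1.20 between 4 and 8 h (limma adjusted p = 1.5e-12) and fell by 0.27 between 8 and 24 h (adjusted p = 6.92e-05), but remained 0.41 above untreated cells at 24 h (adjusted p = 3.72e-07). After NCS it fell by only 0.18 between 4 and 8 h (adjusted p = 0.00914) and fell by 0.13 between 8 and 24 h (adjusted p = 0.0384), and was still 0.91 above untreated cells at 24 h (adjusted p = 5.53e-12). At 8 h after NCS the difference from untreated cells was 1.04 (adjusted p = 1.77e-11), and without NCS replicate 1, the highest of the 3, it was 0.98 and no longer over 1.

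IL11, which signals through IL11RA and gp130, showed the same early rise at a lower level. Untreated libraries read 6.64, 6.75 and 6.72, those at 4 h after H2O2 7.74, 7.79 and 7.77, and those at 4 h after NCS 7.45, 7.35 and 7.45. The 3 groups did not overlap. IL11 rose by 1.06 ± 0.05 (SE, n = 3) with H2O2 (limma adjusted p = 3.2e-12) and by 0.71 ± 0.05 with NCS (adjusted p = 3.33e-09). By 8 h it had dropped to 7.13, 7.08 and 6.94 after H2O2 and to 7.12, 7.06 and 7.08 after NCS. At 24 h its libraries lay between 6.98 and 7.02 after H2O2 and between 6.98 and 7.05 after NCS, still above every untreated library. The differences from untreated cells were 0.35 and 0.29 at 8 and 24 h after H2O2 (limma adjusted p = 6.78e-06 and 3.9e-05) and 0.38 and 0.31 after NCS (adjusted p = 4.33e-06 and 1.79e-05).

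IL6, the founding member of this family, varied little. Its values stayed between 4.03 and 4.31 in all 21 libraries. IL6 was higher than in untreated cells (4.03 to 4.08) by 0.20 ± 0.05 at 4 h after H2O2 (4.14 to 4.31, limma adjusted p = 0.00346), by 0.15 at 8 h after H2O2 (adjusted p = 0.0279) and by 0.15 at 8 h after NCS (adjusted p = 0.0372). The difference was 0.13 at 4 h after NCS (adjusted p = 0.0991), 0.06 at 24 h after H2O2 (adjusted p = 0.425) and 0.11 at 24 h after NCS (adjusted p = 0.115). These calls were not stable. With quantile normalization the difference at 4 h after H2O2 was 0.01 (limma adjusted p = 0.857), and at 8 h the calls were lost when untreated replicate 1 or 3, H2O2 replicate 1 or 3, or NCS replicate 1 or 2 was left out (0.14 in each case).

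IL8, the neutrophil chemokine CXCL8, had the largest differences of the 4 CXC chemokines. It read 4.82, 4.82 and 4.78 in untreated cells, 6.12, 5.88 and 5.91 at 4 h after H2O2, and 5.53, 5.40 and 5.44 at 4 h after NCS. No libraries of these 3 groups overlapped. The rise at 4 h was 1.16 ± 0.06 (SE, n = 3) with H2O2 (limma adjusted p = 6.12e-11) and 0.65 ± 0.06 with NCS (adjusted p = 5.46e-07). At 8 h the libraries stood at 5.41, 5.40 and 5.43 after H2O2 and at 5.22, 5.13 and 4.99 after NCS, 0.61 and 0.31 above untreated cells (adjusted p = 3.83e-07 and 0.00106). IL8 fell by 0.55 between 4 and 8 h (adjusted p = 9.95e-07) and fell by 0.38 between 8 and 24 h after H2O2 (adjusted p = 6.81e-05). At 24 h it remained 0.23 above untreated cells after H2O2 (limma adjusted p = 0.00634), and after NCS, at 4.93, 4.86 and 4.88, the difference was 0.08 (adjusted p = 0.359).

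The 3 other CXC chemokines, which act on the same receptor CXCR2 as IL8, were low throughout. CXCL1 stayed between 1.61 and 1.73 and CXCL2 between 2.78 and 3.03 over the 21 libraries, and neither passed the test against untreated cells in any group on the deposited scale. Both were called lower at 4 h after H2O2 with quantile normalization (-0.12 and -0.19), CXCL1 also at 24 h after H2O2 without untreated replicate 3 (-0.08, limma adjusted p = 0.0201), and CXCL2 at 24 h after NCS without untreated replicate 1 (-0.13, adjusted p = 0.0262). The 95% interval of the difference from untreated cells at 4 h after H2O2 was -0.07 to 0.04 for CXCL1 and -0.15 to 0.05 for CXCL2 on this shrunken scale. CXCL3 lay between 3.68 and 4.08. It was higher than in untreated cells by 0.25 ± 0.07 at 8 h after H2O2 (limma adjusted p = 0.0086), with libraries at 3.83 to 4.07 against 3.68 to 3.75, and without H2O2 replicate 3 the difference was 0.20 (adjusted p = 0.0546). At 8 h after NCS its libraries read 4.08, 3.97 and 3.70, so that the lowest lay within the untreated range, and the difference was 0.20 (adjusted p = 0.0538). Without that library it was 0.31 (adjusted p = 0.000783).

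IL1B, a cytokine made as an inactive precursor and cleaved by caspase-1, had another time course. Its values were 3.83, 3.78 and 3.78 in untreated cells and stayed between 3.80 and 3.89 at 4 and 8 h after H2O2, but at 24 h after H2O2 they were 4.16, 4.13 and 4.16. At 24 h after NCS they were between 3.82 and 3.92. The late H2O2 libraries lay above all untreated and all 24-h NCS libraries. IL1B was higher at 24 h after H2O2 by 0.35 ± 0.06 than in untreated cells (limma adjusted p = 0.00018) and by 0.29 ± 0.06 than after NCS (adjusted p = 0.00241), and it rose by 0.32 between 8 and 24 h (adjusted p = 0.000451). At 8 h after NCS the libraries were spread from 3.76 to 4.12, wider than in any other group. The difference from untreated cells there was 0.12 (adjusted p = 0.217), and without the lowest, replicate 3, it was 0.20 (adjusted p = 0.0208). That library was also the lowest of its group for CXCL3 and IL8. IL1A, the related cytokine that is active without cleavage, stayed between 1.06 and 1.16 in all libraries and passed the test against untreated cells in no group on the deposited scale.

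CCL2, the monocyte chemoattractant MCP-1, was listed at 0 in all 21 libraries, as were 3674 genes in the file. MIF, a cytokine gene that most cells express, was also among them, and no statement about the expression of CCL2 is drawn from its value of 0.

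**Figure D2:**
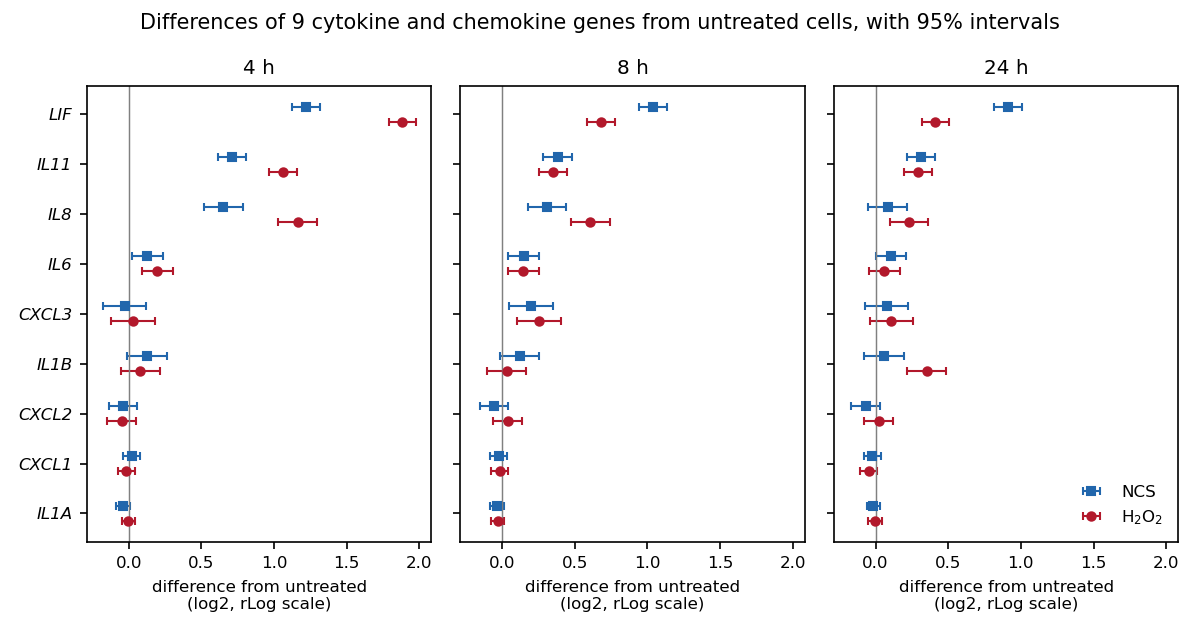
Difference from untreated cells (log2, rLog scale) of the 9 varying genes at 4, 8 and 24 h after NCS (squares) or H2O2 (circles), with bars for the 95% interval of the limma fit. LIF, IL11 and IL8 stand to the right of 0 at 4 h. At 24 h LIF (0.91 after NCS and 0.41 after H2O2) and IL11 (0.31 and 0.29) still do. So do IL8 (0.23) and IL1B (0.35) at 24 h after H2O2. The intervals of CXCL1, CXCL2 and IL1A cover 0 at each time.

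Compared directly at matched times, H2O2 gave higher levels than NCS of the 3 responsive members at 4 h. H2O2 minus NCS was 0.66 ± 0.04 for LIF (limma adjusted p = 1.11e-09), 0.51 ± 0.06 for IL8 (adjusted p = 2.55e-06) and 0.35 ± 0.05 for IL11 (adjusted p = 5.01e-06), so that 3 members were higher and none lower, a count not far from the share of all genes, of which 26.3% were higher and 18.0% lower. At 8 h IL8 was still 0.30 higher after H2O2 (adjusted p = 0.00104) while LIF was lower, at -0.36 (adjusted p = 5.14e-06). That is 1 member in each direction, against 18.7% of all genes higher and 15.4% lower. At 24 h IL1B was higher and LIF lower, at -0.50 (adjusted p = 1.63e-07), again 1 in each direction, against 11.0% and 10.9%. IL11 did not differ past the threshold from 8 h on, with 95% intervals of -0.13 to 0.06 at 8 h and -0.12 to 0.07 at 24 h. For IL8 at 24 h the interval was 0.01 to 0.28 (adjusted p = 0.12).

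**Figure D3:**
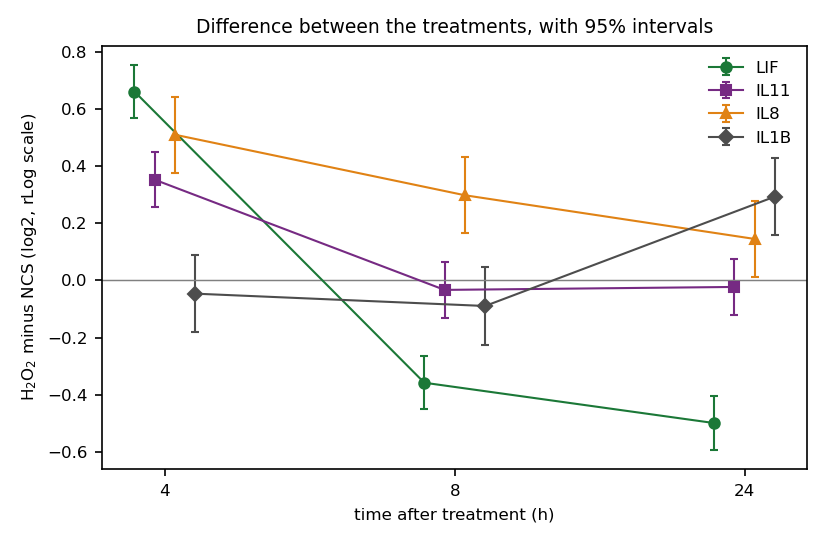
H2O2 minus NCS difference (log2, rLog scale) of LIF, IL11, IL8 and IL1B at 4, 8 and 24 h, with bars for the 95% interval of the limma fit and lines joining the times. LIF goes from 0.66 at 4 h to -0.50 at 24 h, IL8 and IL11 move toward 0, and IL1B stands at 0.29 at 24 h.

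Other secreted factors were taken from a list. Of 39 further cytokines and chemokines, 34 varied, and CXCL14, CCL4, CCL7, CCL8 and MIF were listed at 0 in every library. At 4, 8 and 24 h, 12, 6 and 5 of the 34 were higher and 0, 2 and 1 lower after H2O2, and 2, 3 and 4 were higher and 1, 0 and 1 lower after NCS. Beside 26.2%, 18.8% and 20.2% of all genes higher after H2O2 and 7.47%, 10.5% and 19.6% after NCS, the counts of higher genes at 8 and 24 h after H2O2 and at each time after NCS are near or below the background. The counts of lower genes are below it at each time. Of all genes, 19.7%, 18.6% and 19.9% were lower after H2O2 and 9.72%, 13.3% and 18.4% after NCS. TSLP, an epithelial cytokine that acts on dendritic cells, was the only one past a log2 difference of 1. It averaged 6.21 in untreated cells, 7.23 at 4 h after H2O2 and 6.12 at 4 h after NCS, a rise of 1.02 with H2O2 (limma adjusted p = 4.09e-09) and a difference of 1.11 between the agents (adjusted p = 1.34e-09). TSLP was -0.09 from untreated cells at 4 h after NCS (adjusted p = 0.547), but higher by 0.37 at 24 h after NCS (adjusted p = 0.000679) and by 0.25 at 24 h after H2O2 (adjusted p = 0.0137).

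Of 23 listed receptors and signal transducers of these cytokines, 22 varied and none passed a log2 difference of 1. At 4, 8 and 24 h, 7, 8 and 7 were higher and 4, 2 and 3 lower after H2O2, and 6, 4 and 6 were higher and 1, 1 and 4 lower after NCS. Of all genes, 26.2%, 18.8% and 20.2% were higher and 19.7%, 18.6% and 19.9% lower after H2O2, and 7.47%, 10.5% and 19.6% were higher and 9.72%, 13.3% and 18.4% lower after NCS, so that the 7 of 22 higher at 4 h after H2O2 lie near the background.

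All 24 listed transcription factors and mRNA decay factors varied. At 4, 8 and 24 h, 12, 10 and 6 were higher and 5, 4 and 11 lower after H2O2, and 9, 7 and 4 were higher and 7, 8 and 12 lower after NCS. Against the same shares of all genes, the 6 higher at 24 h after H2O2 and the 4 at 24 h after NCS of 24 are near the background. The 11 and 12 of 24 lower at 24 h after H2O2 and NCS lie above it, at 19.9% and 18.4%. So do the 7 and 8 lower at 4 and 8 h after NCS, at 9.72% and 13.3%. The 5 and 4 lower at 4 and 8 h after H2O2 are near it, at 19.7% and 18.6%. At 24 h the median difference of this list was -0.14 after H2O2 and -0.16 after NCS. FOSB, an AP-1 subunit, averaged 6.93 in untreated cells and 11.8 at 4 h after H2O2, a rise of 4.88 (limma adjusted p = 5.39e-16), but 7.29 at 4 h after NCS, a rise of 0.36 (adjusted p = 0.0269). ATF3, a stress-induced factor that pairs with AP-1 proteins, rose with both agents at 4 h, by 3.45 with H2O2 (adjusted p = 2.53e-18) and 1.58 with NCS (adjusted p = 6.89e-13). The ATF3 libraries lay between 8.19 and 8.24 in untreated cells, between 11.65 and 11.68 at 4 h after H2O2 and between 9.78 and 9.80 at 4 h after NCS.

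JUNB, CEBPB, FOS and RELB all rose with H2O2 at 4 h, and differed in their values after NCS. JUNB, another AP-1 subunit, rose by 1.51 with H2O2 (limma adjusted p = 4.69e-11) and by 0.58 with NCS (adjusted p = 3.78e-05) at 4 h. CEBPB, the C/EBP factor first described as a regulator of IL6, was higher by 1.16 at 4 h, 1.11 at 8 h and 0.99 at 24 h after H2O2, and after NCS it was -0.04 from untreated cells at 4 h (adjusted p = 0.842) and higher at the later times, by 0.30 (8 h, adjusted p = 0.0014) and 0.55 (24 h, adjusted p = 9.2e-07). FOS, a partner of JUN proteins in AP-1, rose by 0.76 at 4 h after H2O2 (adjusted p = 3.24e-07) and fell by 0.92 at 4 h after NCS (adjusted p = 1.5e-07). Its rise with H2O2 did not last. From a mean of 6.88 in untreated cells, FOS had reached 5.87 with H2O2 and 5.80 with NCS by 24 h. These late differences, -1.02 and -1.09, passed the p and log2 limits (limma adjusted p = 4.64e-09 and 2.03e-09). With NCS the 8-h difference was already -0.99, whereas that of H2O2, -0.16, was not called. RELB, an NF-kB subunit, was the one of the 6 that was higher after NCS than after H2O2 at 4 h, with 8.87 against 8.40, and rose by 1.10 with NCS (adjusted p = 3.22e-11) and 0.63 with H2O2 (adjusted p = 9.92e-09).

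**Figure D4:**
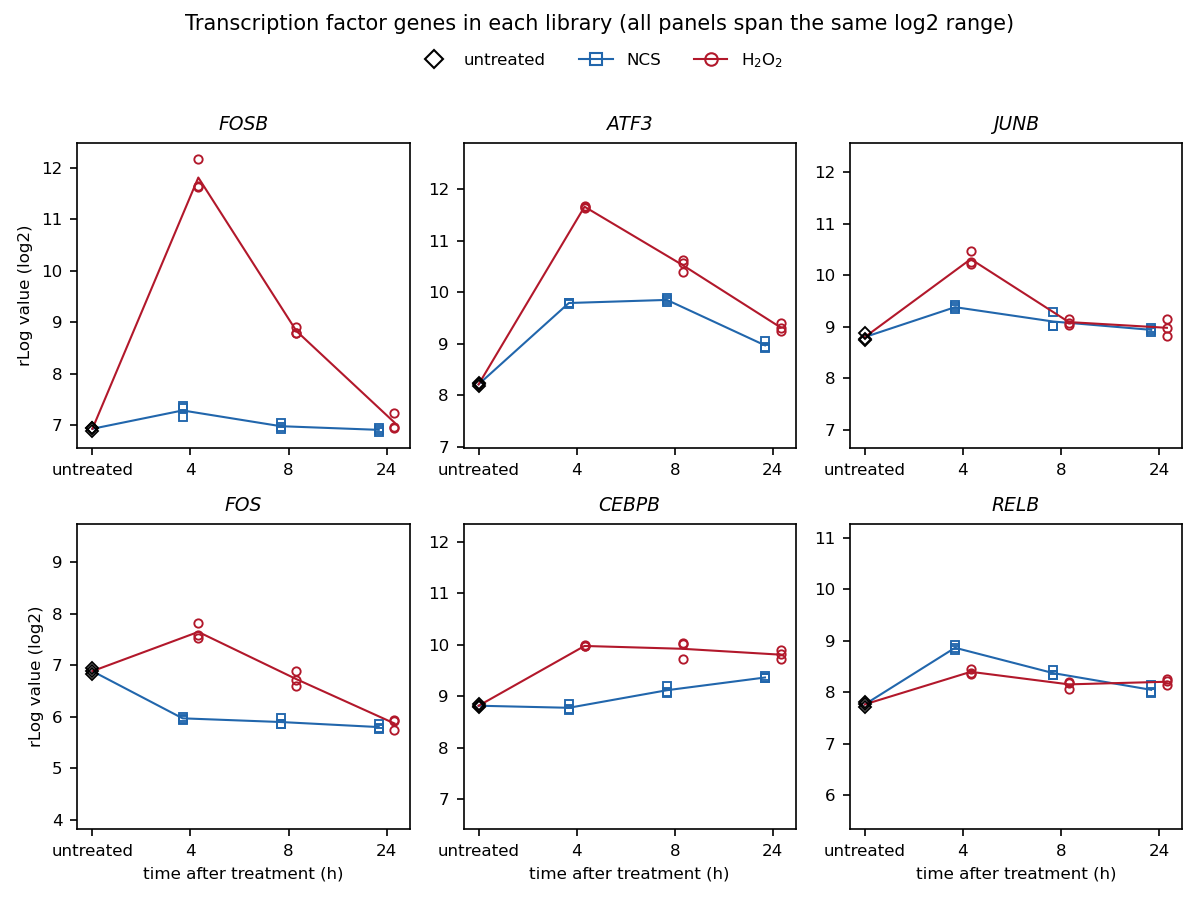
Each point is the rLog value (log2) of a library for 6 transcription factor genes, in untreated cells and 4, 8 and 24 h after NCS (squares) or H2O2 (circles), with lines through group means; every panel spans the same log2 range. FOSB reaches a mean of 11.8 at 4 h after H2O2 and 7.29 after NCS, and RELB is the one with the NCS mean above the H2O2 mean at 4 h.

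Leukocyte markers were examined because leukocytes are a main source of several of these cytokines. At 4 h after H2O2, 4 of the 7 varying leukocyte markers were higher, ITGAM by 1.72, CSF1R by 0.40, CD79A by 0.25 and LYZ by 0.05, while none of the 7 passed the test at 4 h after NCS. Of all genes, 26.2% were higher at 4 h after H2O2 and 7.47% at 4 h after NCS. A count of 0 of 7 after NCS is thus near the background. LYZ averaged only 0.09 over the 21 libraries. The summed level of the list was 10.0 to 10.1 in untreated cells, 10.1 to 10.2 at 4 h after H2O2, 10.0 to 10.1 at 4 h after NCS and highest at 24 h after NCS, at 10.5 to 10.6. This sum, taken on the linear scale, mostly follows CD68 and says little of the other markers. The part of these markers in the cytokine results was not tested.

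Among 3068 other genes with a mean of at least 5 and group means that spanned at least 0.5, the profiles closest to the 3 responsive members over the 21 libraries, which share the 7 groups, were ranked by Pearson's r as a description. IL8 was most like NR4A1, an immediate early nuclear receptor (r = 0.97), and SLC30A1, a zinc exporter induced by metal (r = 0.95). NR4A1 averaged 7.92 in untreated cells, 9.85 at 4 h after H2O2 and 8.75 at 4 h after NCS, and SLC30A1 averaged 8.31, 10.5 and 9.57. IL11 was most like JUNB (r = 0.93) and NR4A1 (r = 0.89). LIF was most like KCTD11 and DUSP8, a MAPK phosphatase gene, each at r = 0.90. KCTD11 averaged 9.27 in untreated cells, 10.2 at 4 h after H2O2 and 9.59 at 4 h after NCS, and it stayed at 9.60 at 24 h after NCS.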

How the data were processed

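RNA was sequenced from 21 libraries of hTERT-HPNE cells in 7 groups of 3 biological replicates, prepared with a stranded mRNA kit. The authors aligned reads with HISAT2, counted them with htseq-count, and deposited log2 values made with the rLog transformation of DESeq2, which divides by size factors and shrinks differences. The submitters' processing notes name the build hg19. The values were used as deposited, and no depth could be calculated from them. The 3674 genes at 0 in every library were left out, which left 19694; 2 names were listed more than once and 28 had been turned into dates. Groups came from the labels and were compared in one fit of all groups with limma 3.58.1 (R 4.3.3, mean-variance trend), with Benjamini-Hochberg adjustment over all genes. The calls were an adjusted p under 0.05, alone and with an absolute log2 difference over 1. The fit was tested on simulated data. With 3 libraries against 3, the exact permutation test cannot go below p = 0.1, and every comparison described as not overlapping reached that value. Named genes were all members, listed pathway genes past both limits in any of the 9 comparisons, at most 6 per list, and the 2 genes most like each member past both limits against untreated cells. Members, lists and rule were chosen with earlier results of these data known. Alternatives were another scaling, a filter on the mean value, other fits, a replicate block and leaving out each library. Gene positions and exon lengths came from GENCODE v29. Figures were drawn with matplotlib 3.10.9.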

Additional observations from a re-analysis of the deposited data

Results flagged for a closer look

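H2O2 minus NCS was not the same at 4 h as at 24 h for 4 of the 9 varying members, nor for 39.4% of all genes, by the interaction term of the limma fit with adjustment over all genes. The count of members is thus near the share of all genes. For LIF, H2O2 minus NCS at 4 h exceeded that at 24 h by 1.16 ± 0.06 (SE, log2; adjusted p = 3.01e-10), and its sign turned. For IL11 the change was 0.38 ± 0.07 (adjusted p = 0.000158) and for IL8 it was 0.37 ± 0.09 (adjusted p = 0.00308). For IL1B it went the other way, at -0.34 ± 0.09 (adjusted p = 0.00601).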

How the results depend on the processing

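Of 330 values of LIF, IL11 and IL8 recomputed under other settings, all kept their side of an adjusted p of 0.05 (limma) and 329 their sign; the exception was IL11 for H2O2 against NCS at 8 h, not called, at 0.02 without H2O2 replicate 3. Of 606 such values of the other 6 varying members, 573 kept their side and 569 their sign, and none that turned in sign was called in either fit. The mean filter, the fit without a trend, the replicate block and the fit of only the groups compared leave each difference unchanged. Under these settings only the adjusted p could move, so their kept signs test nothing. LIF, IL11 and IL8 were set apart by their differences in these same data. With quantile normalization, 6 members passed at 4 h after H2O2 in place of 4 (IL6 lost, IL1A, CXCL1 and CXCL2 called lower), 3 passed at 8 h after H2O2 in place of 5, and 6 differed between the agents at 4 h in place of 3, as IL1B (-0.20), CXCL1 (-0.14) and CXCL2 (-0.14) became lower after H2O2; the cause was not tested. A mean value of at least 5 leaves LIF, IL11 and IL8 alone, and gave 3 members at 8 h after H2O2 and 1 for H2O2 against NCS at 24 h. Leaving out a library gave 3 to 5 members at 8 h after H2O2, with 3 without H2O2 replicate 3, 3 to 6 at 8 h after NCS, with 6 without NCS replicate 3, 2 to 3 at 24 h after NCS, and 0 to 1 past a log2 difference of 1 at 8 h after NCS. With a log2 limit of 0.58 in place of 1, 2 members passed at 8 h after H2O2, 3 at 4 h and 1 at 24 h after NCS, and 1 for H2O2 against NCS at 4 h. Libraries with the same replicate number deviated together weakly or not at all (correlations of -0.11 to 0.21, 7 of 27 over 0.1). Those of H2O2 and NCS at 8 h correlated at 0.19 in replicates 1 and 3. The numbers were not taken to pair the libraries, though whether they do was not settled. With a replicate block 4 members passed at 4 h after H2O2, as without it, and all 90 values of the members kept their side of the threshold. The unknown depth and the shrinkage limit what can be said of members below a value of about 5.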
